A study of Mus musculus with 51 samples.

Results

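Regions of MC3T3-E1 cells that carried H3K27me3 without VitC and were free of both H3K27me3 and 5hmC peaks with VitC were taken from the deposited peak lists. A region belongs to this set when it is an H3K27me3 peak of VitC- cells, shorter than 10000 bp, with a -log10 q of at least 1.3, and when it shares not even 1 bp with an H3K27me3 peak or with a 5hmC peak of VitC+ cells. Of the 84228 H3K27me3 peaks of VitC- cells, 35717 (42.4%) met the rule, which is 48.3% of the 73885 peaks that passed the limits of length and q. These are called lost regions below. The word states only that a peak was listed in the VitC- list and not in the VitC+ list, because the lists chose the regions and have no replicates, and the difference in H3K27me3 itself was not tested.

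MC3T3-E1 is a preosteoblast line from mouse calvaria. The cells were grown without VitC (VitC-) or with 50 µg/ml VitC (VitC+), both with 4 mM β-glycerophosphate, for 28 days per the labels, with 2 dishes per condition and mark; the methods name day 7 for the histone marks. H3K27me3 and H3K9me3 were measured by ChIP-seq and 5hmC by hMeDIP-seq, which precipitates DNA with an antibody to 5-hydroxymethylcytosine. Peaks of 5hmC were also listed for femurs of Gulo knockout mice aged 20 weeks, which cannot make VitC and were given 3.3 g/L VitC for 20 weeks (VitC+) or for 15 weeks followed by 5 weeks without it (VitC+/-), and for femurs of mice aged 11 weeks with floxed Tet1 and Tet2 deleted by Prrx1-Cre (Tet1/2 cKO) or with Prrx1-Cre and unfloxed alleles (Ctrl). RNA-seq of femurs covered 3 libraries each of C57BL/6 wild type (WT), VitC+ and VitC+/- mice aged 20 weeks. Prrx1-Cre acts in limb mesenchyme, so cells of other origin in these femurs, such as blood cells, keep Tet1 and Tet2. For RNA the methods describe femurs that were flushed and minced, and how much marrow remained is not given. A femur is a mixture of bone and marrow cells and not the cultured cells in which the regions were found.

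H3K27me3 is written by Polycomb repressive complex 2, in which Ezh1 or Ezh2 is the methyltransferase and Eed and Suz12 are required partners, and it marks genes that are kept silent. Kdm6a and Kdm6b remove it, and TET enzymes oxidise 5-methylcytosine to 5hmC. Both kinds of enzyme use iron and α-ketoglutarate, and VitC helps to keep the iron active. In many cell types the mark lies on CpG-rich start sites of developmental transcription factors and signalling genes, and in addition as a low and broad layer between genes. H3K9me3 marks heterochromatin and many repeats.

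The sequences below show what kind of DNA the lost regions hold, read from the reference genome GRCm38 (mm10) with CG dinucleotides in capitals. The first lies around the lost region with the highest -log10 q and is a repeat, with all of its bases soft-masked. The second is the middle of the region in the intron of Acp5, the tartrate-resistant acid phosphatase of osteoclasts.
Highest -log10 q, chr2:12642230-12642529, plus strand: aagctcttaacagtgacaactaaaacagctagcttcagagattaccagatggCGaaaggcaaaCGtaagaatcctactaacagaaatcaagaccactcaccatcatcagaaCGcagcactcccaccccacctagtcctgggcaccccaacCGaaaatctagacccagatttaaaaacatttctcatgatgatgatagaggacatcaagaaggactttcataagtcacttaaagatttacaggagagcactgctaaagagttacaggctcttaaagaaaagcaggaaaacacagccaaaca
Region at Acp5, chr9:22135160-22135459, plus strand: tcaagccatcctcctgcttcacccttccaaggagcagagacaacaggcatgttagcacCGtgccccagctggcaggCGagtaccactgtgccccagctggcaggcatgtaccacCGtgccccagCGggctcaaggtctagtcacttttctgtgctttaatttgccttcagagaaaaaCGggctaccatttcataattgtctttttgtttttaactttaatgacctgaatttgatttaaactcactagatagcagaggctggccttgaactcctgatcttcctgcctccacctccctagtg
Of the 300 bases of the first sequence, 200 lie in the lost region, and it holds 4 CG. The piece at Acp5 holds 5.

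Promoters from 250 bases before to 50 bases after the start, as given by RefSeq on GRCm38, show how differently the start sites next to lost regions are built. The 3 shown belong to Wnt1, a secreted signalling ligand, to Rnase6, a ribonuclease of myeloid cells, and to Chat, which makes acetylcholine in neurons.
Promoter of Wnt1, chr15:98789607-98789906, plus strand: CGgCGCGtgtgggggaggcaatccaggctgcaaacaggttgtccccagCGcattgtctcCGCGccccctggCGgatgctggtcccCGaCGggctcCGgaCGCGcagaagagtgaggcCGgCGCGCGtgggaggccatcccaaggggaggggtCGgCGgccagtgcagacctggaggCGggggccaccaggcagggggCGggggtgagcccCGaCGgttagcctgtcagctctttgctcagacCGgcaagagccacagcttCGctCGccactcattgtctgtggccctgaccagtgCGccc
Promoter of Rnase6, chr14:51123658-51123957, plus strand: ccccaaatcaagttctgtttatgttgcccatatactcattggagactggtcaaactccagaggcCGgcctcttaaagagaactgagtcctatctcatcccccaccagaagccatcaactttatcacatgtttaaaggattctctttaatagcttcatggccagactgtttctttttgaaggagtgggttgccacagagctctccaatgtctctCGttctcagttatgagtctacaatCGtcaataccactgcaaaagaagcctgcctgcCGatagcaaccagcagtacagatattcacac
Promoter of Chat, chr14:32465860-32466159, minus strand: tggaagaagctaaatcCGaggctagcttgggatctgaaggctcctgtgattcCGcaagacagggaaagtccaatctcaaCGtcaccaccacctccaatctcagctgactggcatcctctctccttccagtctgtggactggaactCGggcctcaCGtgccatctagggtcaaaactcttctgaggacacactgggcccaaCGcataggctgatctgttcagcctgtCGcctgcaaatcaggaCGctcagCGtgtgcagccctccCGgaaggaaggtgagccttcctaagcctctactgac
The dinucleotide CG, read on both strands since it is its own complement, occurs 26 times in the Wnt1 promoter, and 16.9% of the 32851 promoters of the table have as many. It occurs 10 times at Chat (43.5% have as many) and 4 times at Rnase6 (68.6%), beside a median of 7 over the table. Lost regions covered all 300 bases of the Rnase6 and Chat promoters and 187 bases of the Wnt1 promoter. A promoter was in the table for 688 of the 866 protein-coding genes whose start site lay within 1 kb of a lost region.

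The lost regions were short and weak. Their length ran from 175 to 9657 bp with a median of 641 bp (quartiles 358 and 1058 bp), and together they covered 29.9 Mb. Fold enrichment over the local background was between 1.56 and 6.58 with a median of 2.40. The median -log10 q was 1.64 and 90% of regions lay below 2.23. The 29692 peaks of the same length and q limits that overlapped a VitC+ H3K27me3 peak, also without 5hmC, had a median of 1950 bp and a -log10 q of 1.96 (kept regions). Another 2832 peaks of VitC- cells had lost H3K27me3 and overlapped 5hmC of VitC+ cells (lost regions with 5hmC), with a median of 867 bp and a -log10 q of 1.66. Longer peaks have more chance to touch a peak of any other list, so length differs between these sets by the way they were chosen.

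**Figure D1:**
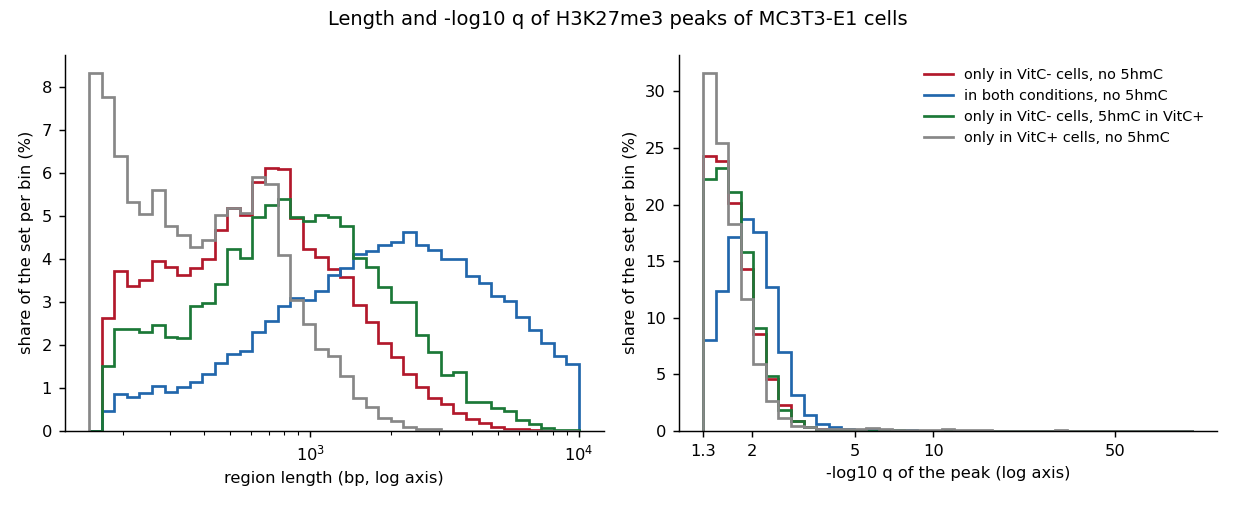
Region length in bp (left, log axis) and -log10 q (right, log axis) for the 35717 lost regions without 5hmC (red), 29692 kept regions (blue), 2832 lost regions with 5hmC (green) and 11811 regions of VitC+ cells chosen by the mirrored rule (grey), as the share of each set per bin. The lost regions peak below 1000 bp and the kept regions above it, and nearly all regions of every set lie below a -log10 q of 5.

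The rule applied in the other direction, with the VitC+ list searched for peaks absent from the VitC- list and from VitC+ 5hmC, gave 11811 regions, or 17.1% of 68919. This is set beside a difference of the whole lists. The VitC- H3K27me3 list covered 233 Mb (8.82% of the genome) in 84228 peaks and the VitC+ list 145 Mb (5.47%) in 86322 peaks. The regions found only with VitC were shorter still, with a median of 375 bp. How many reads lay behind each list was not analysed here, and depth and VitC cannot be told apart for the covered length.

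Many lost regions sat close to the limits of the rule. The lowest -log10 q inside was 1.30001 and the highest outside 1.29997. Within 0.1 above the limit lay 5960 lost regions, and within 0.1 below it 2895 peaks that met every other condition. Only 1 peak was left out for its length alone, at 10279 bp, next to the longest regions inside with 9657 and 8116 bp.

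Most lost regions lay near some H3K27me3 peak of VitC+ cells, whether it was also listed without VitC or not. The median distance to the nearest H3K27me3 peak of VitC+ cells was 2824 bp. It was at most 1 kb for 24.7% of the regions, at most 5 kb for 63.5%, at most 10 kb for 76.7% and at most 50 kb for 93.3%. For the regions found only with VitC, the nearest VitC- peak was at a median of 906 bp. The next 5hmC peak of VitC+ cells was farther, at a median of 12926 bp from a lost region (quartiles 3428 and 39631 bp). For the peaks that overlapped VitC+ H3K27me3 and had no 5hmC this median was 8622 bp, and for the regions found only with VitC 9306 bp. A VitC- H3K27me3 peak of any set lay within 5 kb of 82.0% of the lost regions. For 52.2% the neighbour within 5 kb was another lost region.

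Runs of lost regions that followed each other with no other VitC- H3K27me3 peak between them numbered 16251, of which 8509 held a single region. Runs of 5 or more held 11434 lost regions (32.0%). There were 244 runs of 10 or more, and in 32 of them the whole span was free of VitC+ H3K27me3 peaks. The gaps within a run had no limit of length, so a run is not a continuous domain. The run with most regions had 25 over 444 kb at chr13:92804239-93248222, with 5 VitC+ peaks in the span, and the regions filled 5.12% of it. It lay around Cmya5, a muscle protein, Mtx3, a mitochondrial outer membrane protein, and Tent2, a poly(A) polymerase. A run of 23 regions over 125 kb at chr4:154545594-154670502 covered part of Prdm16, the transcriptional regulator of brown fat cells, and all of Actrt2, with 1 VitC+ peak, and the regions filled 26.5% of it. Another run of 21 regions over 237 kb, at chr7:43950042-44187255, lay in the Klk1b cluster of kallikrein protease genes, and the regions filled 8.22% of it. A run of 22 regions at chr7:137537020-138701466 spanned 1164 kb, of which the regions filled 1.49%.

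Lost regions were found on all chromosomes, from 2932 on chromosome 1 to 8 on chromosome Y, with 49 more on scaffolds. On the autosomes they were between 30.4% (chromosome 19) and 60.2% (chromosome 12) of the VitC- peaks within the limits of length and q. Chromosome X had few such peaks, 622, and 491 of them (78.9%) were lost regions. Per Mb this was 2.87 lost regions on X and between 11.3 and 17.5 on the autosomes.

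Within genes, the lost regions were most numerous in long genes. The bodies of 3304 protein-coding genes (15.2%) held at least 1, and 283 genes held 10 or more. The most were in Asic2, an acid-sensing ion channel of neurons, with 77, in Dlgap2, a postsynaptic scaffold protein, with 65, and in Prdm16 with 53. Plxna4, a receptor for semaphorin guidance cues, held 51, and Ksr2, a scaffold of the MAP kinase pathway, held 48. Long genes have more room, and Asic2 spans 1088 kb.

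Prdm16 stood apart among these by how little H3K27me3 was listed with VitC. Over its 321 kb, at chr4:154316122-154637360, the VitC- list had 57 peaks that covered 87.9 kb and the VitC+ list 5 peaks that covered 1.80 kb. In Asic2, 141 VitC- peaks covered 267 kb and 126 VitC+ peaks still covered 150 kb. Plxna4 was like Asic2, with 220 kb in VitC- and 91.1 kb in VitC+ peaks. Csmd2, a complement-domain membrane protein of brain, fell between them with 108 and 24.2 kb. These coverages follow from lists that the rule used and are descriptions.

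Counted per length among genes with at least 8 lost regions, the densest were shorter. Tmprss13, a membrane-bound serine protease of epithelia, had 28.0 lost regions per 100 kb, Slc28a2, a nucleoside transporter, had 25.9, and Tmc5, a transmembrane channel-like protein, had 24.4. Lcp1, the actin-bundling L-plastin of leukocytes, had 23 lost regions in 99.7 kb, with 31.1 kb in 27 VitC- peaks and 5.56 kb in 9 VitC+ peaks. Siah3, also on chromosome 14, had 17 in 70.2 kb, with 32.3 and 5.61 kb. No 5hmC peak of VitC+ cells was listed in any of these 5 genes. The rule used that list, so genes dense in lost regions were favoured to lack it.

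**Figure D2:**
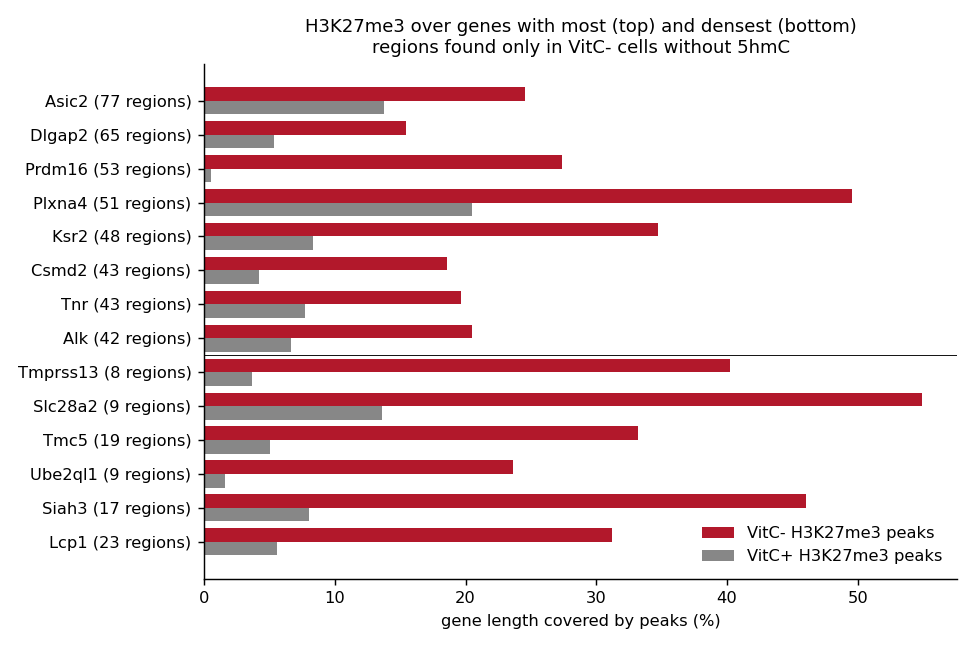
Share of the gene length in percent that was covered by VitC- (red) and VitC+ (grey) H3K27me3 peaks, for the 8 genes with most lost regions (above the line) and the 6 densest among genes with at least 8 (below it), with the number of lost regions in brackets. Coverage was higher in VitC- cells in all 14 genes, from which the regions were chosen, and Prdm16 kept 1.80 kb of 87.9 kb.

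Against the gene map, 54.7% of the lost regions touched no RefSeq gene, beside 52.2% of kept and 56.3% of VitC+ only regions. This is near the share of the genome outside genes, since genes cover 45.6% of it. The midpoint lay in an exon for 4.63%, in an intron for 39.8% and outside genes for 55.5%. The median distance to the nearest start site was 42140 bp. Start sites were within 1 kb of 926 lost regions (2.59%), beside 5.27% of the kept regions, 5.16% of the lost regions with 5hmC and 1.81% of the regions found only with VitC. Longer regions reach more start sites, and the order of the 2 sets changed with length. Under 500 bp the share was 1.98% for lost and 1.74% for kept regions. From 500 to below 1000 bp it was 2.40% and 2.05%. From 1000 to below 2000 bp it was 3.14% and 3.40%, and at 2000 bp or more 5.49% and 8.01%.

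In base composition, the lost regions had a median GC content of 46.0% (quartiles 42.6 and 49.3%), beside 41.7% for the genome and 45.5% for the kept regions. The median region held 5 CpG, 5.81% held none, and the median ratio of observed to expected CpG was 0.164. The median ratio was 0.178 in kept regions, 0.215 in lost regions with 5hmC and also 0.164 in regions found only with VitC. Pooled over the genome the ratio was 0.19, which is not a median over regions and cannot be set directly beside them. A median of 20.9% of a lost region was soft-masked as repeat, and 36.4% of the genome is.

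The few strongest lost regions were of another kind. Of the 110 with a -log10 q of at least 5, 91.8% were soft-masked over at least 90% of their length, their median length was 192 bp, and none lay within 1 kb of a start site. Over all lost regions, 2111 (5.92%) were masked to this degree. Peaks of both H3K9me3 lists overlapped 55.5% of the 110, and 3.02% of all lost regions. Between a -log10 q of 3 and 5, the masked share was 25.3%, and between 2 and 3 it was 6.02%. The regions found only with VitC had the same pattern: of 215 with a -log10 q of at least 5, all were masked and 79.5% overlapped both H3K9me3 lists.

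**Figure D3:**
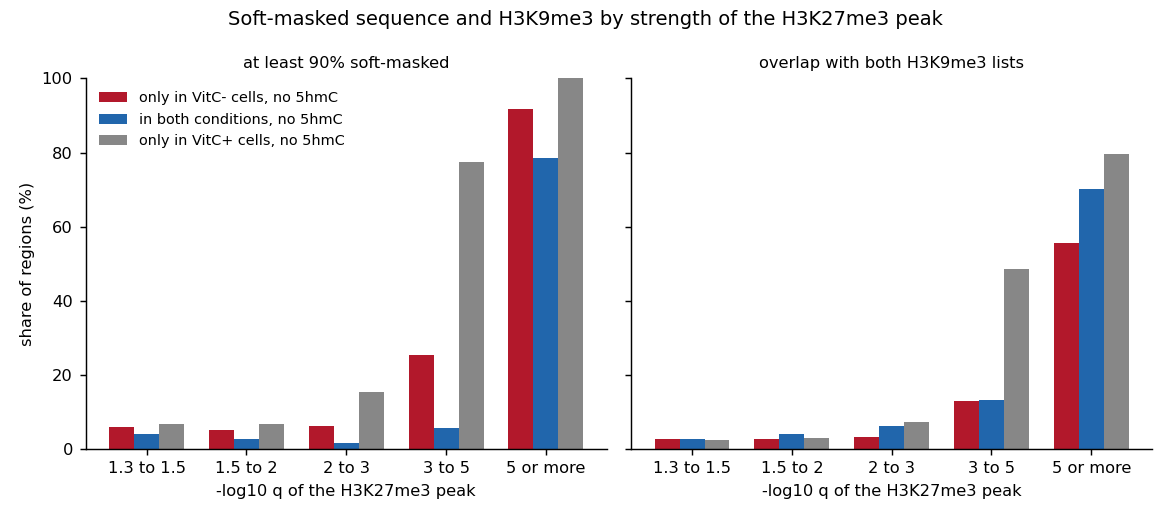
Share of regions in percent that were soft-masked over at least 90% of their length (left) and that overlapped peaks of both H3K9me3 lists (right), by -log10 q of the H3K27me3 peak, for lost (red), kept (blue) and VitC+ only (grey) regions without 5hmC. Both shares were highest at 5 or more, where 91.8% of the lost regions were masked.

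All of the 10 lost regions with the highest -log10 q were soft-masked in full and between 187 and 219 bp long. The first, at chr2:12642280-12642479, had a -log10 q of 52.1 at a fold of 2.68, and lay 222820 bp upstream of Mindy3. The second, at chr10:71693546-71693748, had a -log10 q of 36.2, and the tenth, at chr2:171035011-171035216, had 18.2. Both H3K9me3 lists overlapped 8 of the 10. Reads from repeats can map to more than 1 copy, and how the authors treated such reads is not given in the sources used here. Against this, the longest lost region, at chr7:125383874-125393530, had a -log10 q of 2.12, was soft-masked over 16.7% of its length and overlapped none of the other lists. It ended 749 bp from a VitC+ H3K27me3 peak.

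H3K9me3 overlapped a small part of the lost regions and was listed more often without VitC. It overlapped 2411 of them in VitC- cells (6.75%, Wilson 95% interval 6.49 to 7.02%) and 1396 in VitC+ cells (3.91%, 3.71 to 4.11%). The interval covers counting error only, and regions of the same cells are not replicates. Both lists overlapped 1079 regions, the VitC- list alone 1332 and the VitC+ list alone 317. The VitC- H3K9me3 list was also the wider of the pair, with 66.8 Mb (2.52% of the genome) beside 44.0 Mb (1.66%). By the midpoint alone, 4.55% of lost regions lay in a VitC- and 2.44% in a VitC+ H3K9me3 peak, above these genome shares. The midpoint shares of kept regions were 4.71% and 2.49%. By overlap, kept regions had H3K9me3 in 11.9% and 7.04%, and the gap to lost regions depended on length. Among regions from 500 to below 1000 bp, H3K9me3 of VitC- cells overlapped 6.27% of lost and 6.87% of kept regions, and H3K9me3 of VitC+ cells 3.48% and 4.33%. Among regions under 500 bp the shares were 6.51% and 10.2% without VitC, and 4.05% and 9.48% with it. From 2000 bp up they were 8.11% and 15.5%, and 4.59% and 8.57%.

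5hmC of VitC- cells, a list the rule did not use, overlapped 4732 lost regions (13.2%, Wilson 95% interval 12.9 to 13.6%). The same list overlapped 27% of the kept regions and 36.9% of the lost regions with 5hmC. Between lost and kept regions, the difference followed length. By the midpoint alone, which does not grow with length, 5.44% of lost and 5.47% of kept regions lay in a VitC- 5hmC peak, whereas 15.0% of the lost regions with 5hmC did. The list covers 149 Mb or 5.61% of the genome. Overlap with VitC+ 5hmC of the same cell line ended membership in the lost regions and defined the lost regions with 5hmC. The contrast between these sets is therefore not independent of the rule.

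In femurs, 5hmC overlapped lost regions about as often with VitC as after its withdrawal. On the 19 autosomes, to which the VitC+ and VitC+/- lists are limited, 13.8% of 35169 lost regions overlapped 5hmC of VitC+ femurs and 14.2% overlapped 5hmC of VitC+/- femurs. Both lists shared 3590 regions, 1255 (3.57%) were in the VitC+ list alone and 1391 (3.96%) in the VitC+/- list alone. The whole lists were also close in extent, with 371568 peaks in VitC+ and 399599 in VitC+/- femurs, each over 175 Mb. Presence in a pooled list is not a measure of signal, and a change of 5hmC signal in these regions was not tested. The paper reports, from dot blots, less of this mark in bone of mice after VitC withdrawal. Kept regions had 5.73% in VitC+ alone and 6.37% in VitC+/- alone, and regions found only with VitC had 3.46% and 3.77%. In lost regions with 5hmC, which were chosen by 5hmC of VitC+ cells, the balance was 8.64% in VitC+ alone and 2.41% in VitC+/- alone. VitC- peaks that overlapped both H3K27me3 and 5hmC of VitC+ cells had 9.72% and 4.04%. The midpoint was in a VitC+ femur peak for 5.22% of lost and 5.27% of kept regions.

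Ctrl femurs had 5hmC on 5429 lost regions (15.2%) and Tet1/2 cKO femurs on 2334 (6.53%). Both shared 2159 regions, 3270 (9.16%) were in the Ctrl list alone and 175 (0.490%) in the cKO list alone. These lists differ in the same direction over the genome, with 273 Mb in Ctrl and 123 Mb in Tet1/2 cKO. In lost regions with 5hmC, the shares were 67.1% and 41.8%. None of the 5 lists of 5hmC other than VitC+ cells overlapped 24142 lost regions (67.6%), and 22212 (62.2%) were also free of H3K9me3 in both conditions. All 5 lists overlapped 305 (0.854%).

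**Figure D4:**
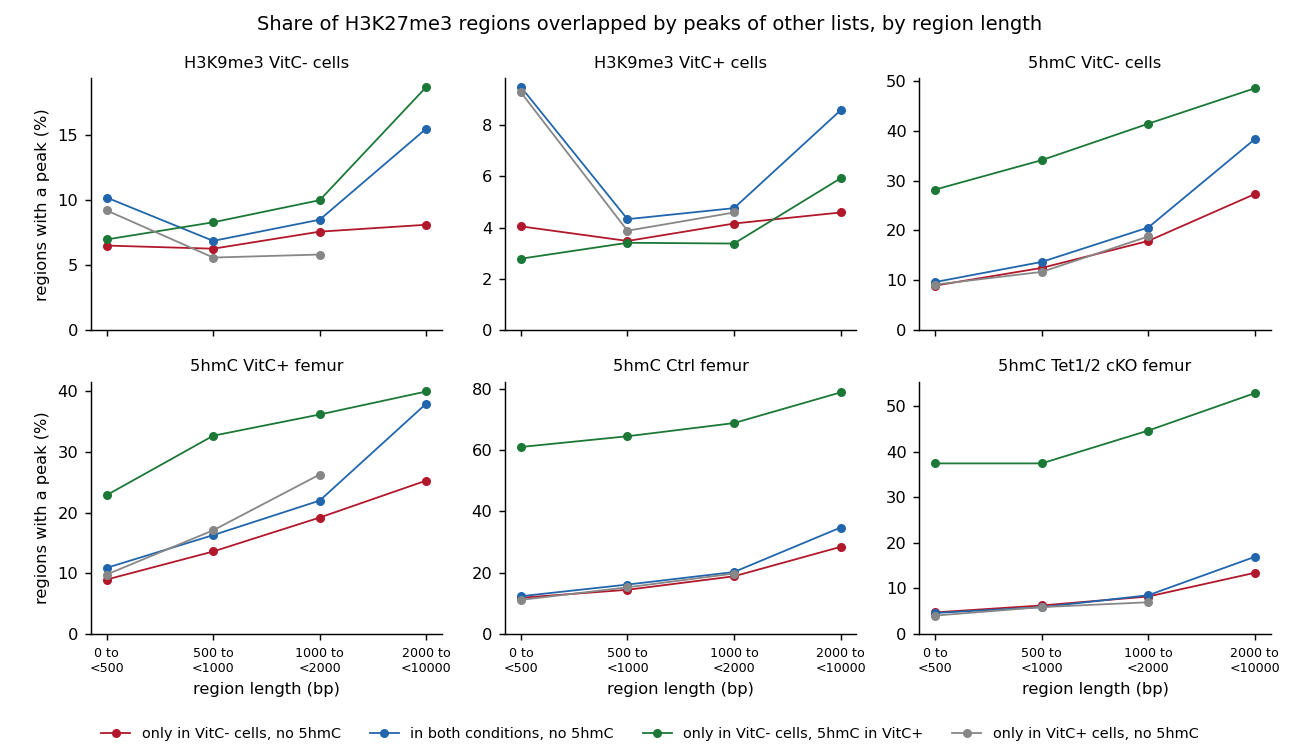
Share of regions in percent that overlapped a peak of 6 other lists, by region length in 4 classes, for lost regions without 5hmC (red), kept regions (blue), lost regions with 5hmC (green) and VitC+ only regions (grey, left out at 2000 bp or more with 48 regions). Within a length class below 2000 bp the lost and kept regions lay close to each other for 5hmC, and the lost regions with 5hmC lay above both in every class of the 4 lists of 5hmC plotted. In the VitC+/- femur list, which is not plotted, they were at 33.6% and the kept regions at 39.2% from 2000 bp up.

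At start sites, the lost regions included genes that Polycomb is known to hold silent. They were at fewer of these than the kept regions, and also at fewer of all protein-coding genes. Of 21774 protein-coding genes, 866 (3.98%) had a start site within 1 kb of a lost region and 1467 (6.74%) within 1 kb of a kept one. For 684 of the 866 (79.0%) no other H3K27me3 region of the sets above was within 1 kb of a start site. A kept region was there as well for 102. Counting all listed peaks, VitC+ H3K27me3 was at a start site of 181 of the 866 genes, beside 3470 of all 21774. An hMeDIP-seq peak of VitC+ cells was at a start site of 140 of the 866, beside 9072 of all. The rule applies to the region and not to the whole surroundings of a start site. Among 290 developmental transcription factors, 24 (8.28%) had a lost region and 42 (14.5%) a kept one. Of 105 signalling ligands and antagonists it was 9 (8.57%) and 11 (10.5%), and of 153 neuronal genes 11 (7.19%) and 16 (10.5%). The lists were not tested for enrichment.

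Other families were also represented. Solute carriers had a lost region at 27 of 375 genes (7.20%), keratins at 8 of 109 (7.34%) and cytochrome P450 genes at 7 of 99 (7.07%). Olfactory receptors, which stand in large silent clusters, had 29 of 1109 (2.61%), vomeronasal receptors 5 of 350 (1.43%) and zinc finger proteins 9 of 397 (2.27%). Collagens had 1 of 44, clustered and other protocadherins 0 of 69, and genes of Polycomb complexes and H3K27 demethylases 0 of 32. Kept regions were at 42 solute carriers, 13 keratins, 10 cytochrome P450 genes and 6 collagens. They were also at 33 olfactory receptors, 2 vomeronasal receptors, 9 zinc finger proteins, 0 protocadherins and 1 gene of the Polycomb list. Of 59 bone-selective genes only Acp5 had a lost region, and 3 had a kept region. Among 15 markers of osteoblasts and osteocytes, none had either.

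Among the developmental factors, Atoh7, a factor of retinal ganglion cells, had a lost region of 457 bp over its start site with a -log10 q of 2.57, and the next VitC+ H3K27me3 peak lay 2665 bp away. Msx2, a homeobox factor of skull and osteoblast development, had a region of 4351 bp that ended 719 bp upstream of a start site, with a -log10 q of 2.39 and VitC+ 5hmC at a distance of 146 bp. Pou1f1, the pituitary factor, Tbx1, a factor of the pharyngeal arches, and Nkx1-1 had -log10 q of 2.25, 2.08 and 2.05. The region at Tbx1 lay over a coding exon, and it and that at Nkx1-1 overlapped both H3K9me3 lists. The regions at Atoh7, Msx2 and Pou1f1 overlapped neither.

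Among signalling genes, the growth factor Fgf9 had a region of 1562 bp in an intron, with a -log10 q of 2.55, VitC- H3K9me3 and VitC+ 5hmC 255 bp away. Igf2, the imprinted insulin-like growth factor, had one of 218 bp with 17 CpG and a -log10 q of 2.47. Sfrp1, an inhibitor of Wnt signalling, and Jag2, a Notch ligand, had regions 520 and 614 bp upstream, with -log10 q of 2.09 and 1.90. The regions at Wnt2 and Wnt1 lay over the start site and were rich in CpG, with 41 in 467 bp and 40 in 663 bp. At Wnt1, VitC+ 5hmC began 170 bp away. At Wnt2 it was 55030 bp away and VitC+ H3K27me3 356 bp.

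Among neuronal genes, the potassium channel Kcna2 had a -log10 q of 2.90 over 631 bp, and the calcium-activated potassium channel Kcnma1 had 2.20 over 691 bp in an intron. Chat had 2304 bp over its start site with 53 CpG and a -log10 q of 2.05. The calcium channel Cacna1b, the glutamate receptor Gria1 and the dopamine receptor Drd3 had -log10 q of 2.0, 1.85 and 1.84 and held 3 to 6 CpG each. The region at Gria1 stood alone, 382251 bp from any VitC+ H3K27me3 peak. The other 5 had one within 127 to 4286 bp.

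Acp5, Siglec15, Bmp8b and Notch3 are bone-selective genes for which the lists gave different pictures. At Acp5 the lost region was 317 bp in an intron, 278 bp from the start, with a -log10 q of 1.55, and 5hmC of VitC- cells, Ctrl and Tet1/2 cKO femurs overlapped it. Bmp8b, a bone morphogenetic protein, had 3 lost regions 2457, 4254 and 6388 bp upstream, with -log10 q of 1.62, 1.79 and 1.59, and no VitC+ H3K27me3 peak within 10 kb. It also had a lost region with 5hmC 7445 bp downstream of the start. Siglec15, a sialic acid receptor of osteoclasts, had 1 lost region of 1993 bp 2308 bp upstream and 3 kept regions downstream of its start. Notch3, a Notch receptor of mural cells, had 1 kept region 7147 bp downstream of its start, and the nearest lost region was 24120 bp away.

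RNA of the start-site genes was read in femurs, with RPKM values divided by a size factor per library (scaled RPKM). Gulo, the gene inactivated in the VitC+ and VitC+/- mice, had 0.522, 0.486 and 0 RPKM in the libraries labelled WT. It had 0.180, 0.0352 and 0.0294 in VitC+ and 0.0126 to 0.0186 in VitC+/-. WT replicate 3 was thus below the knockout libraries, and VitC+ replicate 1 stood above the other knockout libraries. All of these values were near the floor, under 1 RPKM, so the labels cannot be judged from them. Depth, computed from whole steps of low values, was 7.61 M reads in WT replicate 1 and 31.2 to 47.6 M reads in the other 8. Between 71.2 and 76.6% of low values lay within 0.05 of a whole step. The 15 markers of osteoblasts and osteocytes were present in every group, with a summed scaled RPKM of 1411 to 4574 in WT, 7074 to 12331 in VitC+ and 2989 to 8626 in VitC+/-. Blood cells were present as well. Fewer cells of a type and less RNA per cell cannot be told apart in such samples, and p-values measure the spread between 3 mice per group.

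Most start-site genes of lost regions were low in femur RNA. Of the 866, 743 were found once in the RPKM table, with a median of 0.138 scaled RPKM over the 9 libraries, beside 2.44 for all 18208 protein-coding genes found there. A level of at least 1 was reached by 30.6% of them and by 58.3% of all. Genes with a kept region were alike, with a median of 0.164 and 30.0% at 1 or more. Genes at lost regions with 5hmC had a median of 1.49. The low filter for the test, an RPKM of at least 1 in 3 libraries, was passed by 231 of the 866, and the counts below speak of these alone.

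In VitC+/- against VitC+ femurs, 33 of the 231 were lower (14.3%) and 11 higher (4.76%) at an adjusted p under 0.05 by limma. Of all 12586 genes tested, 7.52% were lower and 5.93% higher. The median log2 difference was -0.23, beside 0.02 for all genes. Against WT, 58 were lower in VitC+/- (25.1%) and 31 higher (13.4%), beside 15.9% and 15.3% of all genes, with a median of -0.19. Genes with a kept region had 16.9% lower and 4.86% higher of 391 against VitC+, and 28.1% and 14.6% against WT. Start sites of VitC+ only regions had 24.3% lower and 4.29% higher of 70 against VitC+, and 37.1% lower against WT, and those of lost regions with 5hmC had 19.7% lower of 76 in each. The share of lower genes was thus above that of all genes in each of these sets, and in none was it lower against VitC+ than for lost regions. Both comparisons share the VitC+/- libraries.

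The count against VitC+ rested on few libraries. It was 44 in all, and fell to 11 without VitC+/- replicate 1, to 14 without VitC+ replicate 2, to 16 without VitC+ replicate 3, to 21 without VitC+ replicate 1 and to 28 without VitC+/- replicate 3. The calls over all genes moved alike, from 1692 to 487 without VitC+/- replicate 1 and to 490 without VitC+ replicate 2. Without the library labelled WT replicate 3 it was 31, and the count against WT went from 89 to 66. With the deposited RPKM not scaled, 22 were called against VitC+, 13 of them lower, with 876 over all genes, and the median of all genes moved from 0.023 to 0.134.

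Of the 15 markers of osteoblasts and osteocytes, 7 were lower and 1 higher in VitC+/- against VitC+, and 3 were lower and 2 higher against WT. Markers of other cells also moved with these groups. The 9 neutrophil markers found had a summed scaled RPKM of 51991 to 73805 in WT, 29435 to 46439 in VitC+ and 7032 to 23800 in VitC+/-, and 9 of 9 were lower against WT and 2 of 9 against VitC+. B-cell precursor markers summed to 79.1 to 157 in VitC+ and 14.0 to 27.1 in VitC+/-, with 8 of 9 tested markers lower. Osteoclast markers summed to 1912 to 2638 and 2966 to 6544, with 4 of 10 higher against VitC+ and 8 of 10 against WT. Erythroid markers summed to 164 to 249 and 293 to 396, with 1 of 7 higher against VitC+ and 2 of 7 against WT. Adipocyte markers summed to 192 to 416 and 328 to 2531, with 1 of 9 higher against VitC+ and 7 of 9 against WT. Skeletal muscle markers ranged from 25.3 to 1373 in VitC+ and from 6.58 to 385 in VitC+/- libraries, and none was called in 9. In each list some level was found for every marker. Their part in the differences of the start-site genes was not tested.

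The 10 start-site genes with the smallest adjusted p against VitC+ were 9 lower and 1 higher in VitC+/-. Several are known from myeloid cells. Rnase6 had 17.4, 12.7 and 17.7 scaled RPKM in WT, 11.3, 14.4 and 11.4 in VitC+ and 2.55, 2.44 and 2.49 in VitC+/- libraries. All VitC+/- values lay below all others, with a log2 difference of -2.10 ± 0.17 (SE, adjusted p = 0.000378 by limma) against VitC+ and -2.44 against WT. In the cells, a lost region of 1374 bp reached over its start site, and the next VitC+ H3K27me3 peak was 38447 bp away.

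Mgl2, a lectin of macrophages and dendritic cells, had 8.77, 9.73 and 8.0 scaled RPKM in VitC+ and 0.575, 1.31 and 0.609 in VitC+/- libraries. The groups did not overlap, and the log2 difference was -2.85 ± 0.27 (SE, adjusted p = 0.000719 by limma). Pilra, an inhibitory receptor of myeloid cells, had 10.9, 10.8 and 9.41 in VitC+ and 2.70, 4.66 and 2.72 in VitC+/-. It fell by 1.53 on the log2 scale, with an adjusted p of 0.00423 by limma. The lost region at Mgl2 lay 90 bp downstream of the start and that at Pilra 377 bp upstream.

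Ceacam10, a secreted member of a family with similar copies, and Ethe1, a mitochondrial dioxygenase of sulfide metabolism, lie near each other on chromosome 7. Ceacam10 had 6.06, 7.01 and 5.10 scaled RPKM in VitC+ and 0.955, 1.56 and 0.746 in VitC+/- libraries. Ethe1 had 18.4, 28.3 and 19.6 in VitC+ and 5.46, 7.76 and 4.73 in VitC+/- libraries. In both genes the VitC+/- libraries were below all others, with log2 differences of -2.07 ± 0.22 and -1.80 ± 0.21 (SE) against VitC+ and -2.72 and -2.70 against WT. The adjusted p by limma against VitC+ was 0.00133 for Ceacam10 and 0.00191 for Ethe1.

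Slfn5, of the Schlafen family that responds to interferon, had 14.1, 12.9 and 11.4 scaled RPKM in VitC+ and 6.75, 6.82 and 5.77 in VitC+/- libraries. Dpp4, a peptidase of the cell surface, had 1.57, 2.23 and 1.86 and then 0.327, 0.587 and 0.376. Dmkn, a secreted protein of the epidermis, had 2.31, 6.32 and 2.79 and then 0.399, 0.491 and 0.195. Their groups did not overlap, and the log2 differences were -0.94, -1.36 and -2.22. The transmembrane protein Tmem221 was at 1.78, 1.03 and 1.18 and then at 0.109, 0.217 and 0.339, a log2 difference of -1.33. The lost region at Dmkn lay at an inner start site of the gene.

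Serpina3n, an inhibitor of serine proteases, was the one that rose. It had 1.10, 0.344 and 0.299 scaled RPKM in WT, 1.2, 0.170 and 0.174 in VitC+ and 14.8, 35.3 and 3.82 in VitC+/- libraries. The lowest VitC+/- library was above the highest of the others, and the values within VitC+/- spread widely. The log2 difference was 3.86 ± 0.70 (SE, adjusted p = 0.0108 by limma) against VitC+ and 3.7 against WT. Its lost region of 1211 bp lay 748 bp downstream of the start, with a VitC+ H3K27me3 peak 340 bp away.

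The 10 start-site genes with the highest mean level included genes of blood cells. S100a8, a subunit of calprotectin in neutrophils and 1 of the neutrophil markers above, had 10060, 15263 and 10404 scaled RPKM in VitC+ and 5493, 7220 and 2268 in VitC+/- libraries. Its groups did not overlap, but the log2 difference of -1.38 ± 0.43 (SE) was not past the threshold (adjusted p = 0.0638 by limma). Against WT it was -2.20 (adjusted p = 0.00598), a call that was lost with no filter on low values (0.184). Plac8 of immune cells was alike, with 277, 540 and 329 in VitC+ and 204, 244 and 134 in VitC+/-, a difference of -0.96 and an adjusted p of 0.103 by limma.

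Acp5, which is also 1 of the osteoclast markers, went in the other direction. It had 289, 272 and 316 scaled RPKM in WT, 645, 817 and 1078 in VitC+ and 1588, 830 and 1922 in VitC+/- libraries. The WT libraries were below all others, while VitC+ and VitC+/- overlapped. The log2 difference was 2.22 ± 0.31 (SE, adjusted p = 0.00155 by limma) against WT and 0.72 ± 0.31 (adjusted p = 0.147) against VitC+. Without VitC+/- replicate 2, the latter was 1.08 with an adjusted p of 0.0287.

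Lcp1, with the 23 lost regions in its body, had 114, 156 and 118 scaled RPKM in VitC+ and 60.9, 70.7 and 53.6 in VitC+/- libraries, without overlap. The log2 difference was -1.06 ± 0.20 (SE, adjusted p = 0.0122 by limma), and the call was lost with values not scaled (adjusted p = 0.0605), without VitC+ replicate 2 (0.0533) and without VitC+/- replicate 1 (0.0512). Ly6e, a surface protein of blood cells, had 124, 145 and 120 and then 77.2, 85.8 and 58.7, a difference of -0.82 (adjusted p = 0.0165 by limma) that was lost under the same 3 settings, at 0.0954, 0.0716 and 0.0550. The lost region next to Lcp1 was at an inner start site.

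Tyrobp, the adaptor of myeloid receptors, differed from WT by -0.74 on the log2 scale (adjusted p = 0.00616 by limma) and from VitC+ by -0.27 (0.252). Ywhaz, a 14-3-3 protein, differed by -0.66 from WT (0.00689, and 0.0688 with values not scaled) and by -0.36 from VitC+ (0.107), and the chemokine receptor Cxcr4 by -0.65 from WT (0.0487) and by 0.11 from VitC+ (0.762). The call of Cxcr4 was lost in 10 alternatives, with adjusted p between 0.0537 and 0.142. Rabac1 and Kdelr1, of membrane traffic in all cells, were at -0.05 and -0.32 against VitC+ with adjusted p of 0.849 and 0.396. A lost region at the start site in cultured cells thus stood beside genes called lower, genes called higher and genes not called in femurs.

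**Figure D5:**
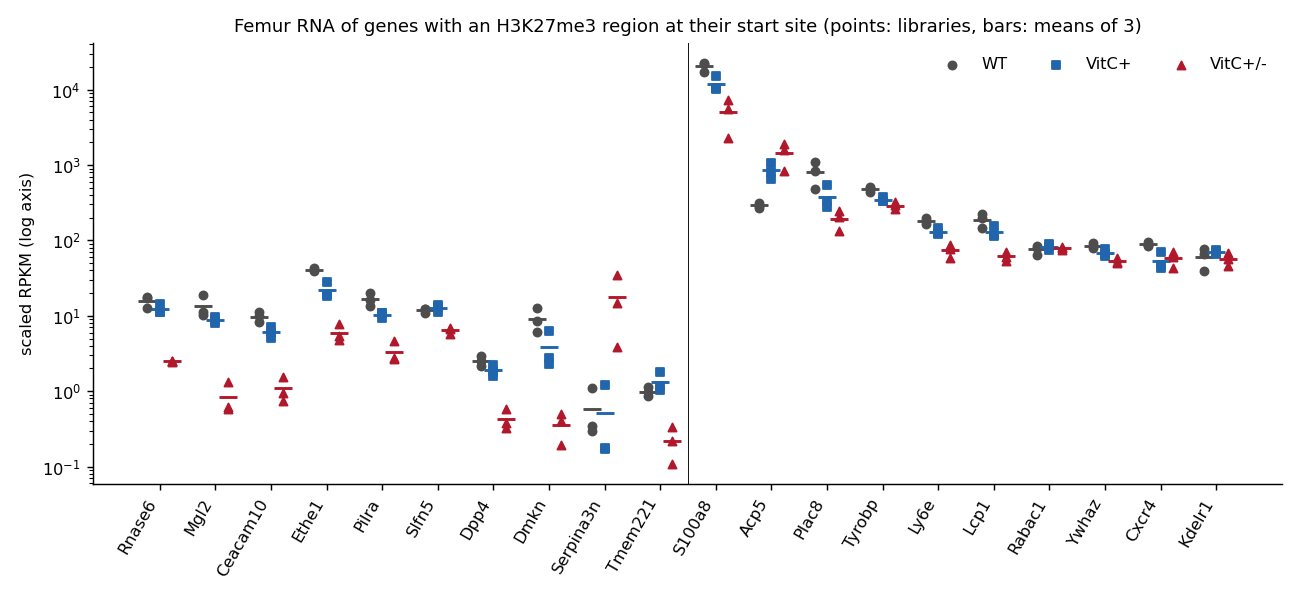
Scaled RPKM (log axis) of 20 start-site genes of lost regions in WT (circles), VitC+ (squares) and VitC+/- (triangles) femurs, with 3 libraries per group as points and their mean as a bar, for the 10 genes with the smallest adjusted p against VitC+ (left of the line) and the 10 with the highest mean (right). Of the left 10, Serpina3n alone rose, from a mean of 0.515 in VitC+ to 18 in VitC+/-.

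Start-site genes of the lists with a lost region were mostly below the filter. Of 24 developmental factors, 3 were tested against VitC+ and 1, Hoxb2, was lower, with 1.25, 2.93 and 4.43 scaled RPKM in VitC+ and 0.735, 0.354 and 0.850 in VitC+/- libraries (log2 difference -1.46 ± 0.39 SE, adjusted p = 0.0399 by limma). Hoxb2 was named because it was the only one called. Atoh7 was at 0 in all 9 libraries, and Pou1f1 stayed below 0.1 scaled RPKM. Of 9 signalling genes, 4 were tested and none was called against VitC+, and against WT Wnt5a was called higher, named for the same reason (log2 difference 1.59, adjusted p = 0.0465 by limma). Igf2 ranged from 0.642 to 8.52 in WT and from 1.74 to 40.4 in VitC+ libraries, and its groups overlapped. The call of Hoxb2 was lost in 8 of 14 alternatives and that of Wnt5a in 10 of 15. Of 11 neuronal genes, 2 were tested and none was called against VitC+, and against WT the synaptic vesicle protein Syp was lower (log2 difference -1.67, adjusted p = 0.00513 by limma), named as the only call.

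Siglec15 had 0.525, 2.19 and 1.08 scaled RPKM in WT, 2.66, 1.89 and 4.79 in VitC+ and 5.36, 4.48 and 9.36 in VitC+/- libraries. It was higher against WT, by 2.01 ± 0.42 (SE, adjusted p = 0.00719 by limma), and VitC+ and VitC+/- overlapped (0.95, adjusted p = 0.153). Bmp8b was at most 0.123 in any library and was not tested. Notch3 had 7.77, 7.24 and 7.08 in VitC+/- and 9.02, 4.45 and 5.27 in VitC+ libraries (0.28, adjusted p = 0.582 by limma), and differed from WT by 1.16 (0.0206), a call that was lost without VitC+/- replicate 1 (0.0652), WT replicate 2 (0.0551) or WT replicate 3 (0.0802).

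Of the enzymes that write and erase H3K27me3, Ezh2 had 17.8, 27.9 and 22.4 scaled RPKM in VitC+ and 8.63, 14.2 and 14.3 in VitC+/- libraries. The groups did not overlap and Ezh2 was lower by a log2 difference of -0.86 ± 0.23 (SE, adjusted p = 0.0389 by limma). Kdm6a had 6.22, 8.07 and 7.62 in VitC+ and 14.0, 13.0 and 10.0 in VitC+/- libraries, and was higher by 0.72 ± 0.20 (adjusted p = 0.0447 by limma). The call of Ezh2 was lost in 7 and that of Kdm6a in 8 of 15 alternatives, with adjusted p up to 0.148 for each. Both were lost with values not scaled, with no filter on low values, and without VitC+ replicate 2, VitC+ replicate 3, VitC+/- replicate 1 or WT replicate 3. Ezh1, Eed, Suz12 and Kdm6b were not called, with differences of 0.05, 0.13, 0.53 and 0.34. These 2 were the only calls among 31 tested genes of Polycomb complexes and H3K27 demethylases against VitC+, and against WT 2 were lower and 4 higher. The part that the markers of other cells above have in these differences was not tested.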

How the data were processed

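ChIP-seq peaks (H3K27me3, H3K9me3) and hMeDIP-seq peaks of MC3T3-E1 cells, hMeDIP-seq peaks of femurs and RNA-seq of WT, VitC+ and VitC+/- femurs were used. RNA of the Tet femurs was not used here. Mapping with BWA (mm10) preceded MACS2, and the fold enrichment over local background is a ratio as deposited by the authors. The -log10 q is also as deposited from MACS2, and the deposited pileup signal of the MC3T3-E1 5hmC lists was not used for any value. The methods state an FDR of 0.05, but the histone lists hold peaks down to a -log10 q of 1.01. Replicates were pooled for hMeDIP-seq, and whether both dishes were pooled for the histone marks is not stated. For the histone marks the labels give day 28 and the methods day 7. The femur VitC lists cover 19 autosomes only. RPKM per library was deposited by the authors after STAR. The methods name cufflinks for FPKM, and whether these RPKM values came from it is not stated.

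Members and lists of genes were chosen with earlier results of these data known. Regions were compared by overlap of at least 1 bp, by midpoint and by length, with RefSeq genes of GRCm38, and without a test, since no list has replicates. Regions at start sites have an end or the body within 1 kb of it. RPKM was divided by median-of-ratios factors (0.757 to 1.10), log2 was taken after adding 0.5, so that folds of low genes are understated, and 12586 genes were tested with limma (trend, two-sided, all 9 libraries, Benjamini-Hochberg, threshold 0.05). Of 23358 entries, 69 share a name with another and were left out of the counts of start-site genes. Peak steps and limma were tested on simulated data. Alternatives changed q, length, overlap, window, masking, scaling, pseudocount, filter, the libraries and the replicate block.

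Named regions are the 10 with the highest -log10 q, the 5 longest and, at start sites of the bone, developmental, signalling and neuronal lists, up to 6 each by -log10 q. 1 of these is not reported here. Named genes are the 10 with the smallest adjusted p against VitC+, the 10 with the highest mean, Siglec15, Bmp8b and Notch3, and 6 enzymes of H3K27me3. Genes with most lost regions and runs are named by their counts. The tests used limma 3.58.1 in R 4.3.3. Regions were handled in Python 3.11.15 with pandas 2.3.3 and numpy 2.4.6, intervals came from scipy 1.17.1 and plots from matplotlib 3.10.9.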

Additional observations from a re-analysis of the deposited data

How the results depend on the processing

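The number of lost regions was 35717, and 6756 at a -log10 q of at least 2, 498 at 3, and 56456 when membership ended only at an overlap of 50% of the region or more. The mirrored rule gave 11811, and 1684, 361 and 19485 in the same order, and 4904 when peaks of the other lists had to be more than 1 kb away. The share at a start site was 5.46% within 2.5 kb and 2.92% at a -log10 q of at least 2. Outside genes lay 48.4% with a margin of 3 kb, and 53.5% without regions soft-masked over at least 90% of their length, a setting chosen after seeing the data. By midpoint the shares with H3K9me3 were 4.55% (VitC-) and 2.44% (VitC+), at a -log10 q of at least 2 they were 8.97% and 5.82%, and without masked regions 5.36% and 2.88%. For 5hmC, midpoint shares were 5.44% (VitC- cells), 5.22% (VitC+ femur) and 5.08% (VitC+/- femur), the share at a -log10 q of at least 2 was 14.6% in VitC- cells and 14.7% in VitC+/- femurs, and without masked regions it was 14.2% in VitC+ femurs. Median GC was 44.8% in 1 kb windows and 46.8% at a -log10 q of at least 2. The causes were not tested.

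Of the start-site genes, 44 were called against VitC+ and 89 against WT. Without scaling it was 22 against VitC+. Leaving out a library in turn gave 11 to 61 against VitC+ and 65 to 99 against WT. With the replicate block the counts were 58 and 109. Calls over all genes moved alike, from 1692 against VitC+ to 487 to 2296 without a library and to 2169 with the block, and from 3934 against WT to 4465 with the block. The labels share replicate numbers, and 4 of 9 same-numbered pairs of libraries had a correlation of deviations over 0.1 (-0.192 to 0.465). Differently numbered pairs ranged from -0.37 to 0.415. Whether the numbers pair the mice is not settled by these values, and the main fit did not use them as pairs. Of 927 comparisons of named genes under alternatives (with Hoxb2, Wnt5a and Syp, chosen after their values were seen), 848 kept direction and call, 54 lost the call and 10 gained it. The other 15 changed sign, none of them called. Without a library in turn, the log2 difference against VitC+ ranged from -0.05 to 0.31 for Cxcr4, from -0.02 to 0.28 for Eed, from -0.1 to 0.17 for Ezh1 and from -0.12 to 0.02 for Rabac1. Against WT it ranged from -0.33 to 0.12 for Kdelr1, from -0.07 to 0.12 for Rabac1 and from -0.24 to 0.1 for Suz12. Without scaling, Rabac1 was at 0.08 against VitC+ and Suz12 at 0.02 against WT. Depth of the peak lists is unknown, and weak peaks near the limit of q can be missed in either condition.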
